A study of Arabidopsis thaliana with 9 samples.

Results

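ECS1 (AT1G31580) is a gene on chromosome 1 of Arabidopsis thaliana that gave a low array signal in the er-2 receptor mutant and a high one in the epfl4 epfl6 ligand mutant and in wild type. It was picked as the 1 probe set whose platform annotation names exactly ECS1, and it is 1 of 13333 genes with a locus tag and a probe set of their own on the array. Because it was chosen for this pattern, its levels are given as a description and no test is attached to them. Its neighbours along chromosome 1, which were picked by locus tag, are described with it and were tested over all probe sets.

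Total RNA from developing inflorescence tips was measured on 9 one-colour Affymetrix arrays, 3 per genotype, at 33 days after germination, from untreated plants on soil under continuous light. The groups were er-2, a mutant allele of the receptor gene ERECTA that is allelic to er-106; epfl4 epfl6, mutated in both ligand genes; and WT. The genetic background of all 9 samples is labelled Col-0, and the 3 samples of a genotype are labelled as biological replicates, with no word on how many plants went into each. All p-values refer to the variation among these samples. Inflorescence tips are mixed tissue, so in any gene fewer cells of a type and less RNA per cell cannot be told apart.

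ECS1 encodes a small protein associated with the plant cell wall and was first described as a pathogen-inducible gene whose expression differs between natural accessions. ERECTA is a receptor-like kinase of the plasma membrane that promotes the elongation of stems and pedicels. The secreted peptides EPFL4 and EPFL6 are made in the endodermis and are perceived by ERECTA in the phloem. The gene for ERECTA lies on chromosome 2, and ECS1 on chromosome 1.

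The arrays carried signal for the tissue. Of 12 listed flower bud markers, 4 were measured, AT5G07230 (the tapetum gene A9), AMS, SPL and EMS1. Their genotype means of the log2 signal lay between 5.95 and 10.95, and all 4 were lower in both mutants than in WT. In er-2 AMS differed by −0.36 (limma adjusted p = 0.00928) and EMS1 by −0.37 (0.0151). In epfl4 epfl6 AT5G07230 differed by −0.83 (limma adjusted p = 0.00107), AMS by −0.40 (0.0028) and EMS1 by −0.32 (0.0193). The other differences from WT had limma adjusted p above 0.05. The root hair marker EXPA7 had genotype means of 2.78 to 3.10, less than the lower quartile on each of the arrays (3.22 to 3.33). The stem cell marker CLV3, which few cells express, was at 2.80 to 2.84. Between 2 arrays, r over all probe sets was 0.9945 to 0.9973 within a genotype and 0.9816 to 0.9907 between genotypes. Transcripts of ERECTA, EPFL4 and EPFL6 were not analysed here, so the genotype labels were not checked by them.

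ECS1 gave log2 signals of 4.42, 4.52 and 4.21 in the er-2 arrays. In epfl4 epfl6 the signals were 10.57, 10.77 and 10.84, and in WT they were 10.99, 10.89 and 10.77. The er-2 arrays were low and the other 6 were high, with a gap of 6.06 between the highest er-2 array and the lowest of the others. The arrays of epfl4 epfl6 and WT overlapped.

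The mean log2 signal was 4.38 ± 0.157 in er-2, 10.73 ± 0.139 in epfl4 epfl6 and 10.88 ± 0.109 in WT (SD, n = 3 each). The log2 difference between er-2 and WT was −6.50 ± 0.1 (SE), which is 90.7-fold lower in er-2, and that between er-2 and epfl4 epfl6 was −6.35 ± 0.1 (SE), or 81.4-fold lower. Between epfl4 epfl6 and WT the difference was −0.16 ± 0.1 (SE), close to the SD of 0.136 pooled over the 3 genotypes. The spread among the er-2 replicates was thus near that of the other genotypes, although their level was far lower. On the log2 scale the order of the levels was WT, epfl4 epfl6 and er-2. The difference between WT and epfl4 epfl6 was slightly larger than the pooled SD, their arrays overlapped, and it was not tested.

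In er-2 the ECS1 signal lay above the lower quartile of each array (3.29 to 3.33) and below its median (5.85 to 5.88). Whether it exceeded the background there was not tested, so the 90.7-fold difference is a fitted size and the true size was not determined.

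**Figure D1:**
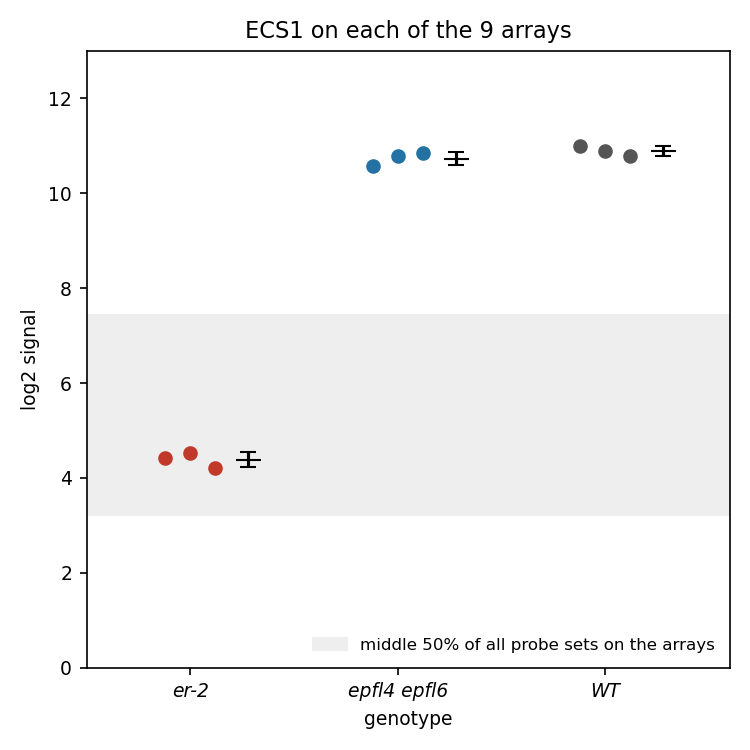
The log2 signal of ECS1 on each of the 9 arrays by genotype (points are replicates 1 to 3, and the bar beside them is the mean ± SD). The grey band spans the probe sets between the lower and the upper quartile. The er-2 points, at 4.21 to 4.52, sit inside the band, and those of epfl4 epfl6 and WT, at 10.57 to 10.99, above it.

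In size, the er-2 minus WT difference of ECS1 ranked 1 among 22746 probe sets, and so did its er-2 minus epfl4 epfl6 difference. Its epfl4 epfl6 minus WT difference ranked 11399, near the middle. Ranked 2 in er-2 minus WT was a probe set not annotated to exactly 1 gene, at −5.83 in er-2 and −0.19 in epfl4 epfl6. That probe set was seen after its values were known and is not among the measured genes. Of the 13333 measured genes, 6 were at least 3 lower on the log2 scale in er-2 than in WT, and 3 of these, ECS1, AT1G23960 and AT1G06640, lay within 0.5 of WT in epfl4 epfl6. The other 3 were chosen after their values were seen and are AT1G11280, with log2 differences of −4.49 in er-2 and −0.74 in epfl4 epfl6, AT1G20150, with −3.14 and −4.50, and the β-glucosidase family gene BGLU28, with −3.04 and −1.43. Both comparisons use the same WT arrays.

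**Figure D2:**
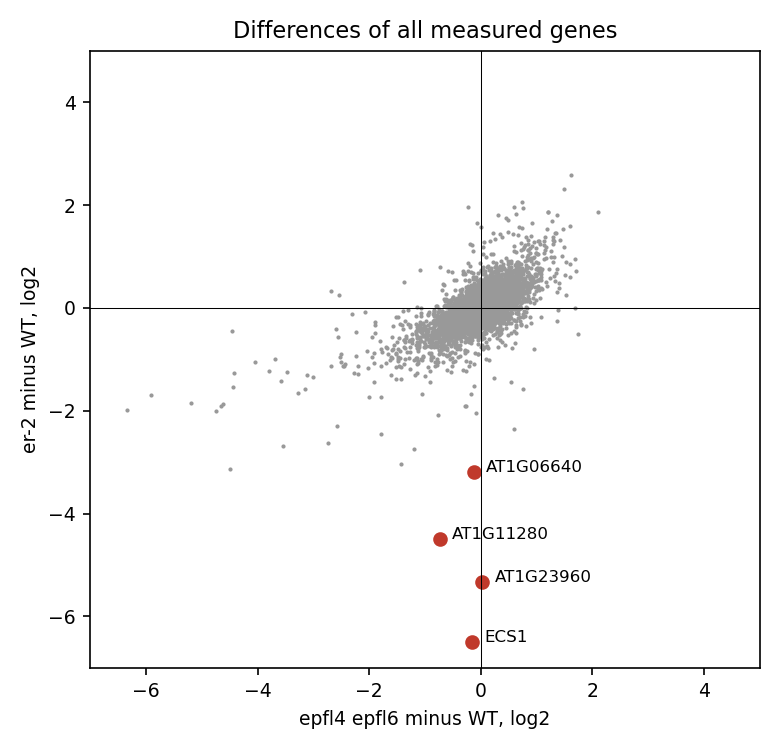
The er-2 minus WT log2 difference (vertical axis) against the epfl4 epfl6 minus WT log2 difference (horizontal axis) for the 13333 measured genes, 1 point per gene; the axes share the WT arrays. ECS1, at −6.50 and −0.16, is the lowest point, and the 4 labelled genes, all on chromosome 1, lie between −0.74 and 0.02 on the horizontal axis.

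The RNA quality controls were read beside ECS1. An index of the log2 signal at the 3′ end minus that at the 5′ end of 3 control transcripts averaged 2.13 ± 0.081 in er-2, 1.67 ± 0.0507 in epfl4 epfl6, and 2.45 ± 0.138 in WT (SD, n = 3 each). In it er-2 lay between the other genotypes, whereas in ECS1 it lay below both. With the index as a covariate, the ECS1 differences were −6.66 ± 0.192 for er-2 minus WT, −6.12 ± 0.257 for er-2 minus epfl4 epfl6 and −0.55 ± 0.413 for epfl4 epfl6 minus WT (SE). The er-2 differences of ECS1 were of similar size with and without the index in the fit. Index and genotype vary together, so this fit cannot tell them apart, and the cause was not tested.

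The nearest measured gene on each side of ECS1 did not show its loss of signal, though the one after it was too dim to show much of a fall. The nearest measured gene before it, AT1G31550, gave 7.77, 7.57 and 7.54 in er-2, 7.40, 7.73 and 7.40 in epfl4 epfl6, and 6.98, 7.17 and 7.13 in WT. It was higher in both mutants, with log2 differences of 0.53 ± 0.104 in er-2 (SE; limma adjusted p = 0.00564) and 0.42 in epfl4 epfl6 (limma adjusted p = 0.0109), and the 3 arrays of each mutant lay apart from those of WT. The nearest measured gene after it, AT1G31620, gave 2.56, 2.48 and 2.50 in er-2, 2.63, 2.50 and 2.48 in epfl4 epfl6, and 2.36, 2.50 and 2.51 in WT, a low signal that overlapped between all genotypes. RefSeq lists 3 protein-coding genes between these neighbours, ECS1 among them, and the other two were not analysed here.

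Among the 10 nearest neighbours, 5 on each side, the log2 differences between er-2 and WT ran from −0.50 to 0.53, with a median of 0.06. AT1G31670 was the lowest of them, at −0.50 (limma adjusted p = 0.0276), with 2.92, 2.95 and 3.05 in er-2, 3.01, 3.46 and 3.32 in epfl4 epfl6, and 3.62, 3.61 and 3.20 in WT. Its er-2 arrays lay below those of WT, and its call was lost without WT replicate 1 or 2, without er-2 replicate 1 or 2, and with the quality index as a covariate (limma adjusted p up to 0.29). The 2 named genes among these 10, AGL86 and AGL92, belong to the MADS-box family of transcription factors and had er-2 minus WT differences of 0.12 (limma adjusted p = 0.318) and 0.05 (limma adjusted p = 0.695). The other 6, AT1G31510, AT1G31520, AT1G31530, AT1G31540, AT1G31620 and AT1G31690, had differences from −0.13 to 0.16 and were not called. Of the 10 genes, 7 had a mean signal under each array's lower quartile, where little fall could be seen.

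The wider window held 20 measured genes on each side. RefSeq lists 75 protein-coding genes across it, and 41 genes were measured there, ECS1 among them, so the window was seen only in part. Of the 40 measured neighbours, 10 were called in er-2 against WT, or 25%, beside 20.8% of all probe sets. That comparison is one that the choice of ECS1 used. Of these 10, 3 were higher and 7 lower, beside 11.8% and 9.01% of all probe sets. A called change of at least 2-fold was found in 2 neighbours, or 5%, beside 1.44% of all probe sets. The median difference was 0.05 in the window and 0.01 over all probe sets, and 29 of 40 neighbours differed by less than 0.2. Of the 40, 18 had a mean signal under each array's lower quartile, where little fall could be seen. With the quality index as a covariate 7.5% of the neighbours were called, beside 648 of all 22746 probe sets (4722 without it). Without the 30% dimmest probe sets, 40% of the remaining 20 neighbours were called, beside 31.6% of the remaining probe sets. It was 40% as well for epfl4 epfl6 against WT, beside 49.3%, and for er-2 against epfl4 epfl6, beside 32.5%.

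The er-2 calls lay mostly on one side of ECS1, which was noticed after the values were seen and was not tested. Of the 20 genes before ECS1, 8 were called in er-2, or 40% beside 20.8% of all probe sets, with differences from −1.44 to 1.44. Of the 20 after it, AT1G31670 and AT1G31870 were called, or 10%, with differences in that stretch from −0.50 to 0.27. The er-2 call of AT1G31870, at −0.18 (limma adjusted p = 0.0452), was lost in 13 of 17 alternatives (limma adjusted p from 0.0258 to 0.666). In epfl4 epfl6 against WT, 4 of 20 were called on each side, or 20% beside 33.9% of all probe sets. With windows of 10 or 50 genes on each side, 25% and 21% of the neighbours were called in er-2 against WT.

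**Figure D3:**
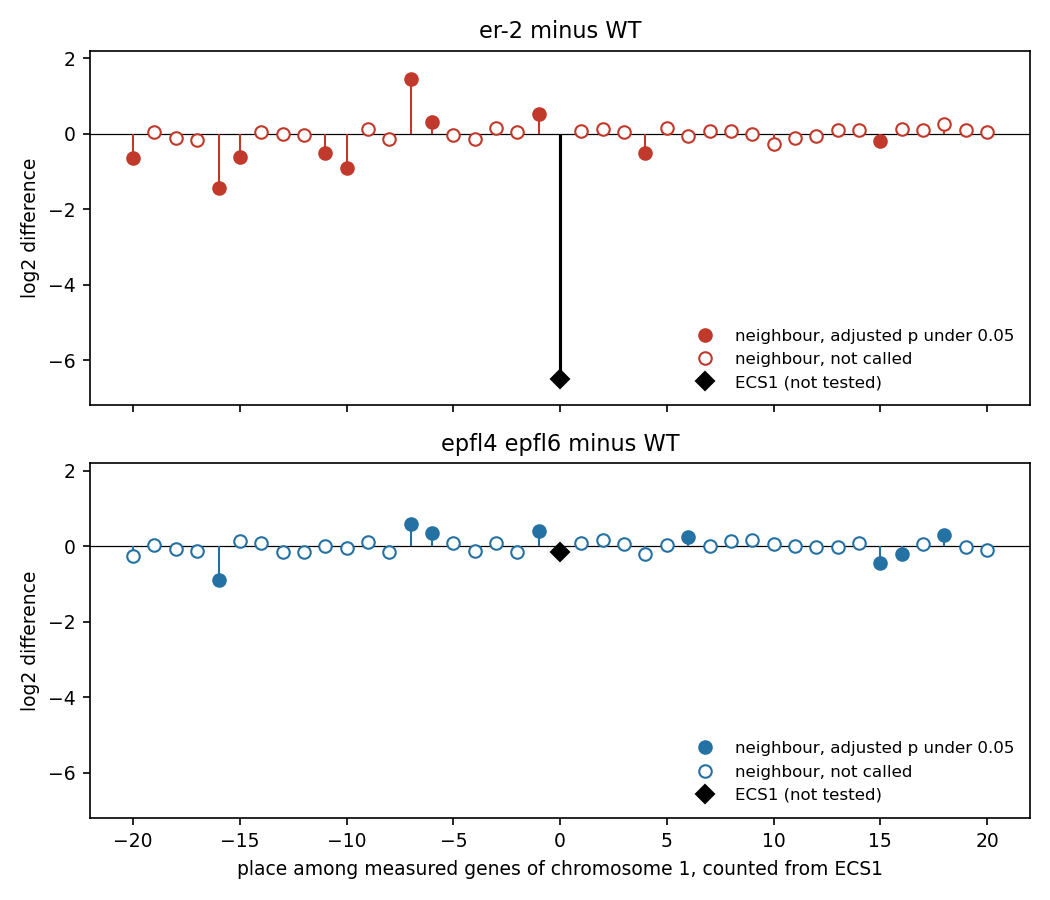
Log2 differences from WT for ECS1 (diamond) and its 40 measured neighbours in locus tag order, for er-2 (top) and epfl4 epfl6 (bottom), with filled circles for neighbours that were called. In er-2 the diamond is at −6.50 while the neighbours stay between −1.44 and 1.44, and in epfl4 epfl6 the diamond is at −0.16 and the neighbours lie between −0.91 and 0.58.

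The pair of neighbours with a called 2-fold change in er-2 moved in opposite directions. AT1G31310, 16 measured genes before ECS1, gave 5.32, 5.50 and 5.44 in er-2, 6.06, 5.84 and 5.97 in epfl4 epfl6, and 6.76, 6.84 and 6.99 in WT. All 3 genotypes lay apart, with er-2 lowest. It fell by 1.44 ± 0.0842 in er-2 (SE; limma adjusted p = 5.45e-06) and by 0.91 in epfl4 epfl6 (limma adjusted p = 6.06e-05). The difference between the mutants was −0.53 (limma adjusted p = 0.00233).

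AT1G31490, 7 measured genes before ECS1, gave 5.96, 6.10 and 5.95 in er-2, 5.24, 5.13 and 5.06 in epfl4 epfl6, and 4.48, 4.53 and 4.69 in WT. Here er-2 was highest and WT lowest, again with no overlap. The gene rose by 1.44 ± 0.0782 in er-2 (SE; limma adjusted p = 3.87e-06) and by 0.58 in epfl4 epfl6 (limma adjusted p = 0.000417), and the mutants differed by 0.86 (limma adjusted p = 0.000143). In both genes epfl4 epfl6 moved the same way as er-2 but less, unlike ECS1, whose epfl4 epfl6 arrays overlapped those of WT.

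Among the neighbours, 4 genes with smaller changes were called lower in er-2 than in both other genotypes while epfl4 epfl6 was not called against WT. They were chosen after their values were seen. AT1G31440 gave 7.06, 6.39 and 6.51 in er-2, 7.59, 7.44 and 7.47 in epfl4 epfl6, and 7.67, 7.50 and 7.50 in WT, and fell by 0.91 ± 0.149 in er-2 (SE; limma adjusted p = 0.00229). AT1G31335 fell by 0.61 ± 0.11 (SE; limma adjusted p = 0.00377). AT1G31430, whose er-2 mean of 2.71 was under each array's lower quartile, fell by 0.52 ± 0.094 (SE; limma adjusted p = 0.00383). AT1G31240, 20 measured genes before ECS1, fell by 0.65 ± 0.117 (SE; limma adjusted p = 0.00377). The er-2 arrays of these genes lay below all other arrays. Against epfl4 epfl6 the differences were −0.85 (limma adjusted p = 0.00394) for AT1G31440, −0.76 (limma adjusted p = 0.00157) for AT1G31335, −0.54 (limma adjusted p = 0.00386) for AT1G31430 and −0.39 (limma adjusted p = 0.0403) for AT1G31240. The last of these calls was lost in 7 of 17 alternatives, those without WT replicate 2, any 1 er-2 replicate, or epfl4 epfl6 replicate 1 or 3 among them (limma adjusted p from 0.0122 to 0.803).

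Of the 40 neighbours, 4 had a Pearson r to ECS1 over the 9 arrays above 0.9 or below −0.9. They were AT1G31440, AT1G31430, AT1G31335 and AT1G31490, at 0.917, 0.917, 0.904 and −0.918 in that order. Of the 13332 measured genes other than ECS1, 94 had r above 0.9 and 154 below −0.9. All but AT1G31490 had been picked for lying below both other genotypes in er-2, and a high r follows from that choice. With the quality index as a covariate the er-2 calls of AT1G31440 (limma adjusted p = 0.107), AT1G31335 (0.522), AT1G31430 (0.565), AT1G31550 (0.244) and AT1G31240 (0.125) were lost, and those of AT1G31310 and AT1G31490 passed in all 17 alternatives. With that covariate no neighbour was called in epfl4 epfl6 against WT or between the mutants, beside 1 and 66 of all 22746 probe sets. AT1G31500 rose by 0.31 in er-2 (limma adjusted p = 0.0327) and by 0.34 in epfl4 epfl6 (limma adjusted p = 0.0141); its er-2 call was lost without WT replicate 1 or 2, without er-2 replicate 2 or 3 and in the fit on 6 arrays (limma adjusted p up to 0.108).

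In epfl4 epfl6 against WT, 8 of 40 neighbours were called, or 20%, beside 33.9% of all probe sets. Of these, 5 were higher and 3 lower, beside 17.9% and 16% of all probe sets, and none of the changes reached 2-fold, beside 2.25%. The share of neighbours called was 10% without WT replicate 1, 12.5% without WT replicate 2, and 12.5% in the fit on the 6 arrays compared. In these fits 6667, 6742 and 7133 of all 22746 probe sets were called, beside 7707 in the main fit. Between er-2 and epfl4 epfl6, 9 of 40 were called, or 22.5%, beside 20.2% of all probe sets, and 3 of them were higher and 6 lower in er-2, beside 10.2% and 10% of all probe sets; no difference reached 2-fold, beside 1.07%. None of the 10 nearest neighbours was called in this comparison, and their differences ran from −0.29 to 0.19, against −6.35 for ECS1.

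The receptor gene's own neighbourhood on chromosome 2 was read in the same way. Of the 40 measured genes around ERECTA (AT2G26330), 7 were called in er-2 against WT, or 17.5%, beside 20.8% of all probe sets, and none by 2-fold or more, beside 1.44%. The differences there ran from −0.76 to 0.89. In epfl4 epfl6 against WT, 10 of the 40 were called, or 25%, beside 33.9% of all probe sets. A change of 2-fold or more was called in 1 of them, or 2.5% beside 2.25%: AT2G26690, named after its value was seen, rose by 1.29 ± 0.15 (SE; limma adjusted p = 0.000183), a call lost with the quality index as a covariate (limma adjusted p = 0.456). Between er-2 and epfl4 epfl6, 2 of the 40 were called, or 5%, beside 20.2% of all probe sets, with differences from −0.40 to 0.39.

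Genes whose pattern was like that of ECS1 over the 9 arrays were sought among all measured genes. By Pearson r the 8 most alike were AT1G23960, AT1G06640, AT4G11190, AT1G04770, AT1G09680, AT1G11280, BGLU40 (AT1G26560, of the β-glucosidase family) and AT1G10160, which RefSeq lists as a pseudogene. Their r ran from 0.98 to 0.9987. Since the arrays form 1 low and 2 high groups in ECS1, r here mainly says how cleanly er-2 stands apart from both other genotypes, and all genes share the same 9 RNA samples. Of these 8 genes, 7 lay on chromosome 1, as did 25.7% of all other measured genes. All 7 came before ECS1, in the stretch that holds 10.8% of the other measured genes. The place of the genes depended on the measure. By Spearman's rho, 4 of the 8 most alike lay on chromosome 1, and 2 of the 8 before ECS1.

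AT1G23960, with r = 0.9987, gave 2.35, 2.73 and 2.46 in er-2, 7.89, 7.87 and 7.87 in epfl4 epfl6, and 7.80, 7.91 and 7.86 in WT. Its er-2 arrays lay below their lower quartiles, and epfl4 epfl6 and WT overlapped, as in ECS1. AT1G06640, with r = 0.997, gave 5.54, 5.43 and 5.19 in er-2, 8.35, 8.56 and 8.42 in epfl4 epfl6, and 8.43, 8.61 and 8.67 in WT. Here too er-2 was low and the other genotypes overlapped. AT1G11280, with r = 0.985, gave 4.52, 3.78 and 4.23 in er-2, 7.95, 7.95 and 7.90 in epfl4 epfl6, and 8.60, 8.65 and 8.76 in WT, so that its epfl4 epfl6 arrays, unlike those of ECS1, lay below WT.

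The other 5 had smaller er-2 minus WT differences, −2.04 for AT4G11190, −1.68 for AT1G04770, −0.71 for AT1G10160, −0.70 for AT1G09680 and −0.66 for BGLU40. In measured genes counted along chromosome 1, BGLU40 was 232 and AT1G23960 316 before ECS1, and AT1G04770 was the farthest at 1273. None of the 8 was thus in the window of neighbours. By the root mean square distance between profiles centred on their own means, which takes size into account, the 5 nearest were AT1G23960 at 0.527, AT1G11280 at 1.14, AT1G06640 at 1.56, AT1G12400 at 1.81 and BGLU28 at 2.0 on the log2 scale.

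The 8 genes with the most opposite pattern, high in er-2 alone, were AT1G05550, AT1G20490, UGT85A5 (AT1G22370, a UDP-glucosyltransferase gene), AT1G08230, AT3G01690, AT1G49750, BGLU33 (AT2G32860, of the β-glucosidase family) and AT3G55710. Their r ran from −0.99 for AT1G05550 to −0.985, and their er-2 minus WT differences were 0.87, 1.65, 0.79, 1.11, 0.56, 0.47, 1.58 and 0.43 in that order. Of these 8, 5 lay on chromosome 1, or 62.5% beside 25.7% of all other measured genes. Before ECS1 lay 4 of the 8, or 50% beside 10.8%. By Spearman's rho, 1 of the 8 most opposite lay on chromosome 1. AT1G20490 gave 6.93, 6.71 and 6.90 in er-2, 5.08, 5.12 and 5.15 in epfl4 epfl6, and 5.13, 5.40 and 5.05 in WT, with er-2 high and the other genotypes overlapping. Over all measured genes, 94 had r above 0.9, 51 of them on chromosome 1, and 154 had r below −0.9, 66 of them on chromosome 1. That chromosome holds 25.7% of the measured genes other than ECS1.

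**Figure D4:**
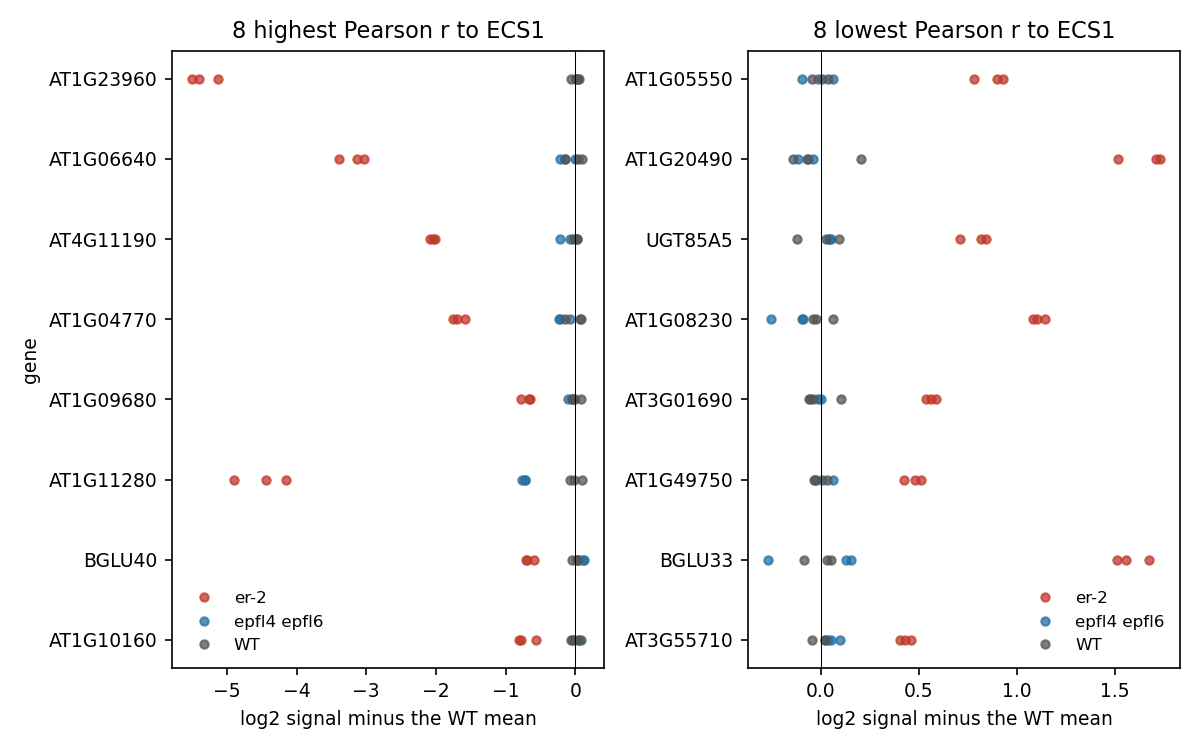
The 8 genes with the highest and the 8 with the lowest Pearson r to ECS1 over the 9 arrays, each array shown as its log2 signal minus the gene's WT mean. The er-2 points stand apart in every row, lowest in AT1G23960 (mean −5.34) and highest in AT1G20490 (mean 1.65), and the epfl4 epfl6 points lie near WT except in AT1G11280.

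Because ECS1 was described as pathogen-inducible and its product as a wall protein, 2 lists of such genes were read beside it. Of 29 pathogen-inducible and defence genes, 4 were measured under their own name. In er-2 against WT 1 of these 4 was called, or 25% beside 20.8% of all probe sets called in either direction. It was lower, beside 9.01% of all probe sets called lower. The thionin gene THI2.1 (AT1G72260), which encodes an antimicrobial peptide, gave 7.69, 7.50 and 7.39 in er-2, 8.47, 8.64 and 8.75 in epfl4 epfl6, and 8.34, 8.86 and 8.36 in WT. Its er-2 arrays lay below all others, and it fell by 0.99 ± 0.142 in er-2 (SE; limma adjusted p = 0.00107), with a difference of 0.10 in epfl4 epfl6 (limma adjusted p = 0.642) and of −1.10 between the mutants (limma adjusted p = 0.000931, and 0.602 with the quality index as a covariate).

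The defensin genes PDF1.2 and PDF1.2b and the glutaredoxin gene GRX480 were not called in any of the 3 comparisons. Their genotype means were low, from 3.53 for PDF1.2b in WT to 4.13 for GRX480 in epfl4 epfl6. That is not far above the lower quartiles of the arrays (3.22 to 3.33), so the room to see a fall was limited. The median er-2 minus WT difference of the 4 genes was −0.10, beside 0.01 over all probe sets. Of 35 genes of wall and secreted proteins, HRGP1 (AT3G54590), for a hydroxyproline-rich wall glycoprotein, was the 1 measured, with a mean log2 signal of 3.62 ± 0.146 in er-2, 3.66 ± 0.176 in epfl4 epfl6 and 3.78 ± 0.193 in WT (SD, n = 3 each). All 3 genotypes overlapped, and HRGP1 was not called (limma adjusted p = 0.416 for er-2 against WT). At this low signal, too, the room to see a fall was limited.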

How the data were processed

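The authors deposited log2 values of every probe set for each array, made with RMA and limma per the submitters' processing notes (versions not given in the sources used here). They ran from 1.74 to 13.47 and were not normalized further. Of 22810 probe sets, 64 controls were left out. Among the other 22746, 13513 had 1 gene, 503 several and 8730 were not listed in the platform annotation. Names came from that annotation and, through 13436 Entrez matches, from RefSeq (TAIR10.1), used for names and gene order only. A gene with several probe sets was read from the brightest.

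A mean per genotype was fitted to all 9 arrays with limma 3.58.1 (R 4.3.3). Adjusted p-values are two-sided, by Benjamini-Hochberg over 22746 probe sets, and a gene was called under 0.05. The fit was also run on simulated data with independent normal noise and no RNA quality difference between genotypes. That run therefore does not bear on the quality index. The number of arrays limits the precision.

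ECS1, the gene lists and the tests were chosen with earlier results of these data known. Named were the 5 nearest neighbours on each side, neighbours called in er-2 against WT with a log2 difference of at least 1, the 8 highest and 8 lowest Pearson r, the 5 nearest profiles by distance, and called list members. Around ERECTA no gene met this rule in er-2 against WT. Alternatives were renormalization, centring, a filter on dim probe sets, variance and weight models, a replicate block, a quality covariate, fits on 6 arrays, each array left out, and windows of 10 or 50 genes.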

Additional observations from a re-analysis of the deposited data

How the results depend on the processing

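The ECS1 differences moved by less than the pooled SD in 7 of 8 alternatives per comparison. The exception was the RNA quality index as a covariate, with −6.66 for er-2 minus WT, −0.55 for epfl4 epfl6 minus WT and −6.12 for er-2 minus epfl4 epfl6. Leaving out each of the 9 arrays gave −6.57 to −6.42, −0.21 to −0.08 and −6.42 to −6.26 for these comparisons. With the covariate, 7.5%, 0% and 0% of the neighbours and 648, 1 and 66 of all probe sets were called in the same order, beside 4722, 7707 and 4587 without it; index and genotype vary together, and the cause was not tested. Without the 30% dimmest probe sets, 40% of the 20 neighbours left were called in each comparison, beside 31.6%, 49.3% and 32.5% of the probe sets left. In the fit on 6 arrays, 12.5% of the neighbours were called in epfl4 epfl6 minus WT, beside 7133 of all 22746 probe sets. Leaving out an array gave 17.5% to 25%, 10% to 17.5% and 17.5% to 22.5% of neighbours called, and 3257 to 4658, 6264 to 7723 and 3324 to 4598 of all probe sets. By Spearman's rho 4 of the 8 genes most like ECS1 lay on chromosome 1, and by distance 6, in place of 7. Same-numbered replicates did not deviate together in every pair (r from −0.19 to 0.29), so the numbers were not taken to pair the samples; with the replicate block 22.5% of neighbours were called in each comparison and 4367, 7449 and 4248 of all probe sets, and the ECS1 differences were −6.50, −0.16 and −6.35.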
